A study of Homo sapiens with 6 samples.

Results

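The neuroendocrine secretory and neuronal genes form a list of 40 genes named by symbol: 6 granule proteins, 5 peptide processing genes, 7 hormone and diagnostic marker genes, 12 exocytosis genes and 10 neuronal cytoskeleton, RNA-binding and surface genes. All probe sets were taken whose only gene symbol is one of these names. They number 89 and cover 38 of the 40 genes, out of 19775 genes with such a probe set on the array. PCSK1 and PCSK2, the prohormone convertases, had none. The 3 probe sets of ELAVL3, a neuronal RNA-binding protein, lay below the limit on low values, so 37 members were tested, among 16868 genes in all.

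The measurements come from DMS-53, an established human small cell lung cancer line that has kept neuroendocrine features. Total RNA was hybridized to 6 Affymetrix U133 Plus 2.0 arrays. The 2 control arrays hold cells in RPMI medium alone. The 2 DFO arrays hold cells given the iron chelator desferrioxamine at 250 µM, and the 2 Dp44mT arrays hold cells given the thiosemicarbazone chelator Dp44mT at 25 µM. Exposure lasted 24 h in each group. Numbers 1 and 2 of a group's arrays are the sets named in the sample titles. All results are for a single cell line. No label tells whether a group's 2 arrays were grown as separate cultures, and a p-value here therefore reflects array-to-array spread only, some or all of it possibly technical. Both chelators were compared with the same 2 control arrays.

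Neuroendocrine cells store peptide hormones and amines in dense-core granules. Chromogranins and secretogranins pack the granule core, convertases, carboxypeptidase E and an amidating enzyme cut and finish the peptides, and SNARE proteins with their calcium sensors fuse the granule with the plasma membrane. Small cell lung cancer cells share this apparatus with neurons, together with intermediate filaments and RNA-binding proteins of the Hu and CELF families. Several of the products, such as chromogranin A, synaptophysin, NCAM1 and gastrin-releasing peptide, serve as diagnostic markers of this tumour. DFO and Dp44mT both bind iron.

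A level below is a quantile-normalized log2(intensity + 16) value of one probe set, the brightest of its gene, and a difference is the change of the group mean on that scale. Levels were not set against each other between genes, because each probe set has its own brightness. A gene was called changed at an adjusted p under 0.05 in limma, with Benjamini-Hochberg adjustment over all 16868 genes. With 2 arrays per group, the 95% interval of a difference reached on average (median over the members) 0.56 to either side.

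The deposited intensities were dimmer on the second array of each chelator group. The array medians were 88.9 and 88.8 for control, 85.5 and 63.0 for DFO, and 83.6 and 49.9 for Dp44mT. Levels of the 2 arrays of a group correlated across genes at 0.971 for control, 0.918 for DFO and 0.892 for Dp44mT. The summed normalized intensity of the 8 epithelial markers, all tested, was 23950 to 24372 in control, 29041 to 29363 in DFO and 26960 to 28251 in Dp44mT. Of these, EPCAM lay between 12.37 and 12.80 and KRT18 between 12.58 and 13.00, and 1 was called, ELF3, higher by 1.69 and 1.71 (limma adjusted p = 0.0298 and 0.0202). For the 5 tested neuroendocrine markers outside the list, of 6, it was 8170 to 10177 in control, 3377 to 3452 in DFO and 1727 to 2080 in Dp44mT. This sum is on the linear scale, and in control INSM1 is the largest part of it. All 5 had a negative difference with both chelators, with medians of −0.77 and −0.97. INSM1 was called with DFO (−2.21), and INSM1 (−3.37) and NKX2-1 (−2.35) with Dp44mT. These are 1 and 2 of 5, beside 1.10% and 3.37% of all genes tested. The summed normalized intensity of the 11 tested fibroblast markers, of 14 listed, was 1008 to 1972 in control, 1567 to 3601 in DFO and 1854 to 4404 in Dp44mT, highest on the second chelator arrays, while PDGFRB, FAP and SPARC lay below the limit on low values. For the 8 tested endothelial markers, of 10, it was 644 to 1080, 987 to 2129 and 1053 to 2517, with CDH5 and CLDN5 below the limit. For the 7 tested leukocyte markers, of 10, it was 934 to 980, 759 to 949 and 928 to 1004, with PTPRC below the limit. No tested marker of these 3 cell types was called. The part of brightness and of these markers in the results was not tested; values within each set are given beside many of the larger differences.

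To show the sequence that lies before some of the genes described below, 4 promoter windows are printed. Each is the 250 bases before the start of the gene in RefSeq on GRCh38.p14, 5′ to 3′ on the gene's strand. SYT11 stands for the members that were higher with both chelators, CADPS and CELF3 for those that were lower, and CHGA for the granule genes, none of which was called. Capitals mark a match to 1 of 4 motifs. These are the core of the hypoxia response element, ACGTG, the cAMP response element, TGACGTCA, the E-box CAGCTG, and TTCAGCACC, the left arm of the element of the neuronal repressor REST. All were searched on both strands.
SYT11, chr1:155859317-155859566, plus strand: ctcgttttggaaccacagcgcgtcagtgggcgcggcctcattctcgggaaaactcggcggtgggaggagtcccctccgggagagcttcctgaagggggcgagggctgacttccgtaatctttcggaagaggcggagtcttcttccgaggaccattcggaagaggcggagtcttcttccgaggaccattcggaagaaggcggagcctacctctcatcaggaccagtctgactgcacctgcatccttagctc
CADPS, chr3:62875417-62875666, minus strand: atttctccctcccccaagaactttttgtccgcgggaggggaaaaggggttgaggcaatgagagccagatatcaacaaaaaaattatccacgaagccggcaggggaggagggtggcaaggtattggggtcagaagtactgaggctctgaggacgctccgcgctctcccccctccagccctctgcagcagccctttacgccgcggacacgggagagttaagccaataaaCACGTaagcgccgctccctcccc
CELF3, chr1:151716804-151717053, minus strand: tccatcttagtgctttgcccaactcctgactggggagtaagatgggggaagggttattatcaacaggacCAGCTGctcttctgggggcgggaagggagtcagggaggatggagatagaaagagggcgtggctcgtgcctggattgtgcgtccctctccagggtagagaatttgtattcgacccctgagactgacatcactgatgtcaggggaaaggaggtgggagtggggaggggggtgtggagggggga
CHGA, chr14:92922900-92923149, plus strand: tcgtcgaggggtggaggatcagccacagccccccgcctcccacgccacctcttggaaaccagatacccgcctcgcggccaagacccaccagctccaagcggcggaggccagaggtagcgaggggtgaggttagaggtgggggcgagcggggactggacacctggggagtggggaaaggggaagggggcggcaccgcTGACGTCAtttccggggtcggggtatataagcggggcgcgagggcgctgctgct
The SYT11 window holds none of the 4 motifs. The window of GRP, a member that was lower with both chelators, is not printed and holds none of them either. The CADPS window holds the hypoxia core on its opposite strand, 23 bases before the start. The CELF3 window holds the E-box 181 bases before the start, and the CHGA window the cAMP response element 54 bases before it. Windows were found for 28 of the 40 members, 40 windows in all because some genes have several starts. The hypoxia core was in 11 of them (27.5%), against 18.5% of all 35116 windows, and the E-box was in 7 (17.5%), against 14.0%. The cAMP response element was in the windows of CHGA, PCSK1 and VGF, 3 of 40 (7.5%), against 1.65% of all windows. The REST half-element was in none of the 40, and in 0.288% of all windows. A match says only that these letters are present.

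The first comparison set DFO against control, and asked which of these genes differ after 24 h of iron chelation. NPTX1, a secreted pentraxin of synapses, fell 4.08-fold, and it was the only member called. SNAP25 and SYT11, both of the exocytosis group, were more than 2-fold brighter on average, but neither passed the test. The granule and processing genes stayed within 0.40 of control on the log2 scale. In all, 0 members were called higher and 1 was called lower, 1 of 37 or 2.70%, beside 1.10% of all genes tested (175 higher and 10 lower). At an unadjusted p under 0.05 there were 5 of 37 members and 2251 of all genes. The median difference was −0.05 over the members and −0.03 over all genes.

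The second comparison set Dp44mT against control. NPTX1 fell 12.1-fold and SNAP25, a SNARE protein of the plasma membrane, rose 2.16-fold. These were the 2 of 37 members called, 5.41%, beside 3.37% of all genes tested (323 higher and 246 lower). The lung cancer hormone GRP, the adhesion molecule NCAM1, the exocytosis factor CADPS and the RNA-binding proteins ELAVL4 and CELF3 were all lower on both Dp44mT arrays, with differences of −1.88 to −1.33, without passing the test. At an unadjusted p under 0.05 there were 12 members and 4062 of all genes. The median difference was −0.18 over the members and 0.03 over all genes.

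A second description counts the genes whose 2 chelator arrays both lay outside the 2 control arrays. With DFO, 16 members (43.2%) lay below both controls and 9 (24.3%) above, and 12 overlapped, beside 30.0% below and 17.1% above among all genes tested. With Dp44mT, 19 members (51.4%) lay below and 6 (16.2%) above, and 12 overlapped, beside 33.1% below and 30.3% above among all genes. These shares move with the scaling of the arrays. On intensities with no scaling between arrays the DFO shares were 27.0% below and 5.41% above, beside 35.4% and 5.22% of all genes, so the members' share below both controls was then the smaller one. For Dp44mT they were 59.5% below and 2.70% above, beside 45.2% and 7.29%. With only the array medians subtracted, 21.6% of the members lay below for DFO, beside 23.9% of all genes, and 51.4% for Dp44mT, beside 37.1%. The sign of a member's difference was the same under the 3 scalings for 27 of 37 members with DFO and 29 of 37 with Dp44mT. The exceptions with DFO were SCG2, SCG5, CPE, PAM, CALCA, UCHL1, SEZ6L, SYT1, NEFM and DNER, and with Dp44mT they were SCG5, PCSK1N, UCHL1, SYT4, STX1A, NEFM, GAP43 and DNER, all of them with small differences for which no direction is claimed.

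**Figure D1:**
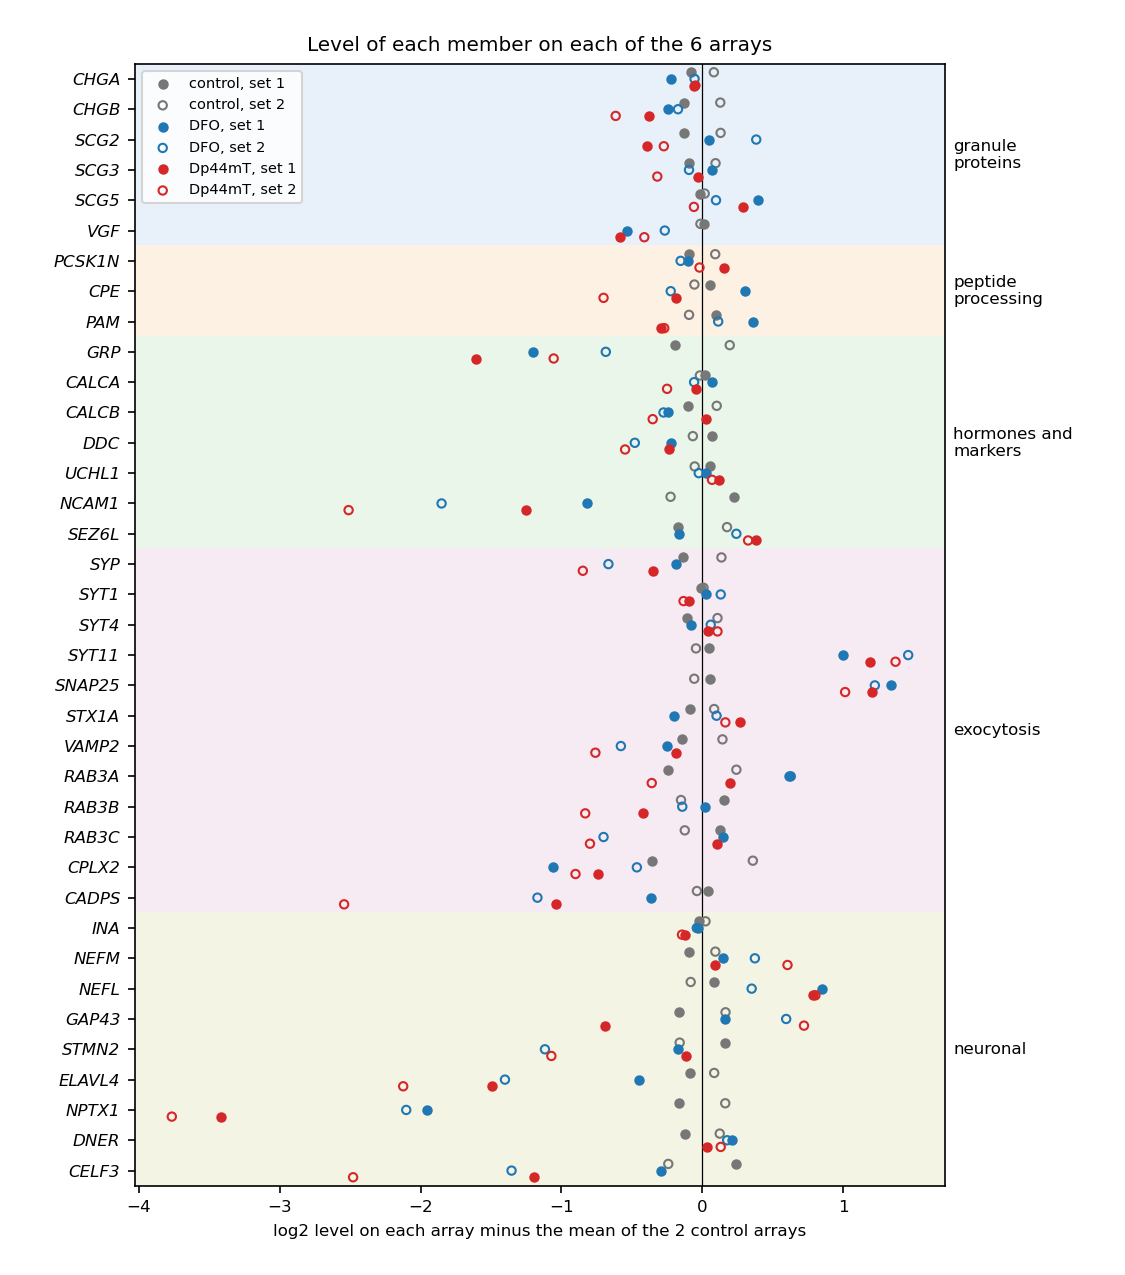
Level of each of the 37 tested members on each of the 6 arrays, as the log2 level minus the mean of the 2 control arrays (x axis), in role groups (shaded); filled points are set 1 and open points set 2. NPTX1 is the farthest to the left, and SNAP25 and SYT11 the farthest to the right. On the chelator arrays the granule genes lie nearer to the line at 0 than these genes do.

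None of the 6 granule proteins was called with either chelator. CHGA, chromogranin A, a matrix protein of the dense-core granule, read 9.41 and 9.57 on the control arrays, 9.27 and 9.44 with DFO, and 9.43 and 9.44 with Dp44mT. The 3 groups overlapped, and the differences were −0.14 (95% interval −0.58 to 0.30) for DFO and −0.05 (−0.49 to 0.38) for Dp44mT. CHGB, chromogranin B, read 9.84 and 10.09, then 9.72 and 9.79, then 9.59 and 9.35, so that both chelator groups lay below control. Its differences were −0.21 and −0.50, with limma adjusted p = 0.695 and 0.202. VGF, a granin cut into several neuropeptides, read 10.01 and 9.98 in control, 9.46 and 9.73 with DFO, and 9.41 and 9.58 with Dp44mT. It too was lower on all 4 chelator arrays, by −0.40 and −0.50 (limma adjusted p = 0.450 and 0.189). The secretogranins SCG2 and SCG3 and the convertase chaperone SCG5 differed by −0.01 to 0.25 with DFO and by −0.33 to 0.12 with Dp44mT. On the quantile-normalized scale, the 95% interval lay within 2-fold of control in either direction for all 6 genes and both chelators. The role group's median was −0.08 for DFO and −0.26 for Dp44mT. With no scaling between arrays it was −0.44 and −0.98, where the median of all genes was −0.32 and −0.50. The unscaled Dp44mT differences of CHGB, SCG2 and VGF were −1.23, −1.07 and −1.22, beyond 2-fold. Those of CHGA, SCG3 and SCG5 were −0.78, −0.90 and −0.59.

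Of the 5 peptide processing genes, 3 could be tested and none was called. PCSK1N, the precursor of an inhibitor of prohormone convertase 1, differed by −0.13 with DFO and by 0.07 with Dp44mT. CPE, carboxypeptidase E, which trims basic residues from cut peptides, read 11.18 and 11.07 in control, 11.43 and 10.90 with DFO, and 10.94 and 10.42 with Dp44mT. DFO overlapped control, and Dp44mT lay below it by −0.44 (95% interval −1.15 to 0.27). PAM, the enzyme that amidates peptide ends with copper as its cofactor, read 11.56 and 11.37, then 11.82 and 11.57, then 11.17 and 11.19. The DFO arrays lay just above both controls and the Dp44mT arrays below them, with differences of 0.23 and −0.28, neither of them called. With no scaling between arrays the DFO difference of PAM was −0.18. Its other probe sets differed by 0.17 and 0.34 with DFO and by −0.18 and −0.12 with Dp44mT.

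Among the hormone and marker genes, GRP and NCAM1 stood apart from the other 5. GRP encodes gastrin-releasing peptide, a growth factor that small cell lung cancer cells release. It read 11.31 and 11.70 in control, 10.30 and 10.82 with DFO, and 9.90 and 10.45 with Dp44mT. Both chelator groups lay below control on both sets. The differences were −0.94 (SE 0.31, limma adjusted p = 0.295) for DFO and −1.33 (SE 0.31, adjusted p = 0.0848) for Dp44mT, or 1.92-fold and 2.52-fold lower. Within set 1 they were −1.01 and −1.41, and within set 2 they were −0.88 and −1.25.

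NCAM1, the neural cell adhesion molecule known as CD56, has 7 probe sets. The brightest read 9.58 and 9.13 in control, 8.54 and 7.51 with DFO, and 8.11 and 6.85 with Dp44mT. All 4 chelator arrays lay below control, and the second array was the lower one in each chelator group. The differences were −1.33 (95% interval −2.72 to 0.05, limma adjusted p = 0.391) and −1.88 (−3.27 to −0.50, adjusted p = 0.125). Within set 1 they were −1.04 and −1.48, and within set 2 they were −1.63 and −2.29. The next brightest probe set was lower by −1.38 and −2.19. On the second arrays only, 2 dim probe sets went the other way. The brighter of them read 5.31 and 4.98 in control, 5.11 and 7.16 with DFO, and 5.12 and 8.06 with Dp44mT. The dimmer, below the limit on low values, read 5.03 and 4.72, then 4.96 and 6.03, then 4.98 and 6.36. The probe sets of NCAM1 therefore do not give one direction, and their mean differed by −0.29 and −0.45.

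CALCA, the gene of calcitonin and its related peptide, and CALCB, the second gene of that peptide, differed by −0.26 to 0.01 with DFO and by −0.16 and −0.15 with Dp44mT. DDC, the decarboxylase that makes dopamine and serotonin, read 12.18 and 12.05 in control, 11.89 and 11.63 with DFO, and 11.88 and 11.56 with Dp44mT. All 4 chelator arrays lay below control, by −0.35 and −0.39, without a call (limma adjusted p = 0.555 and 0.305), and its second probe set by −0.74 and −0.85. UCHL1, the neuronal ubiquitin hydrolase also called PGP9.5, differed by −0.00057 and 0.10, with a 95% interval of −0.41 to 0.41 for DFO. SEZ6L, a seizure-related membrane protein, differed by 0.04 and 0.35. Its 6 probe sets were dim, and one of them reached 6.33 and 7.01 on the second chelator arrays against 4.94 to 5.08 on the other 4.

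**Figure D2:**
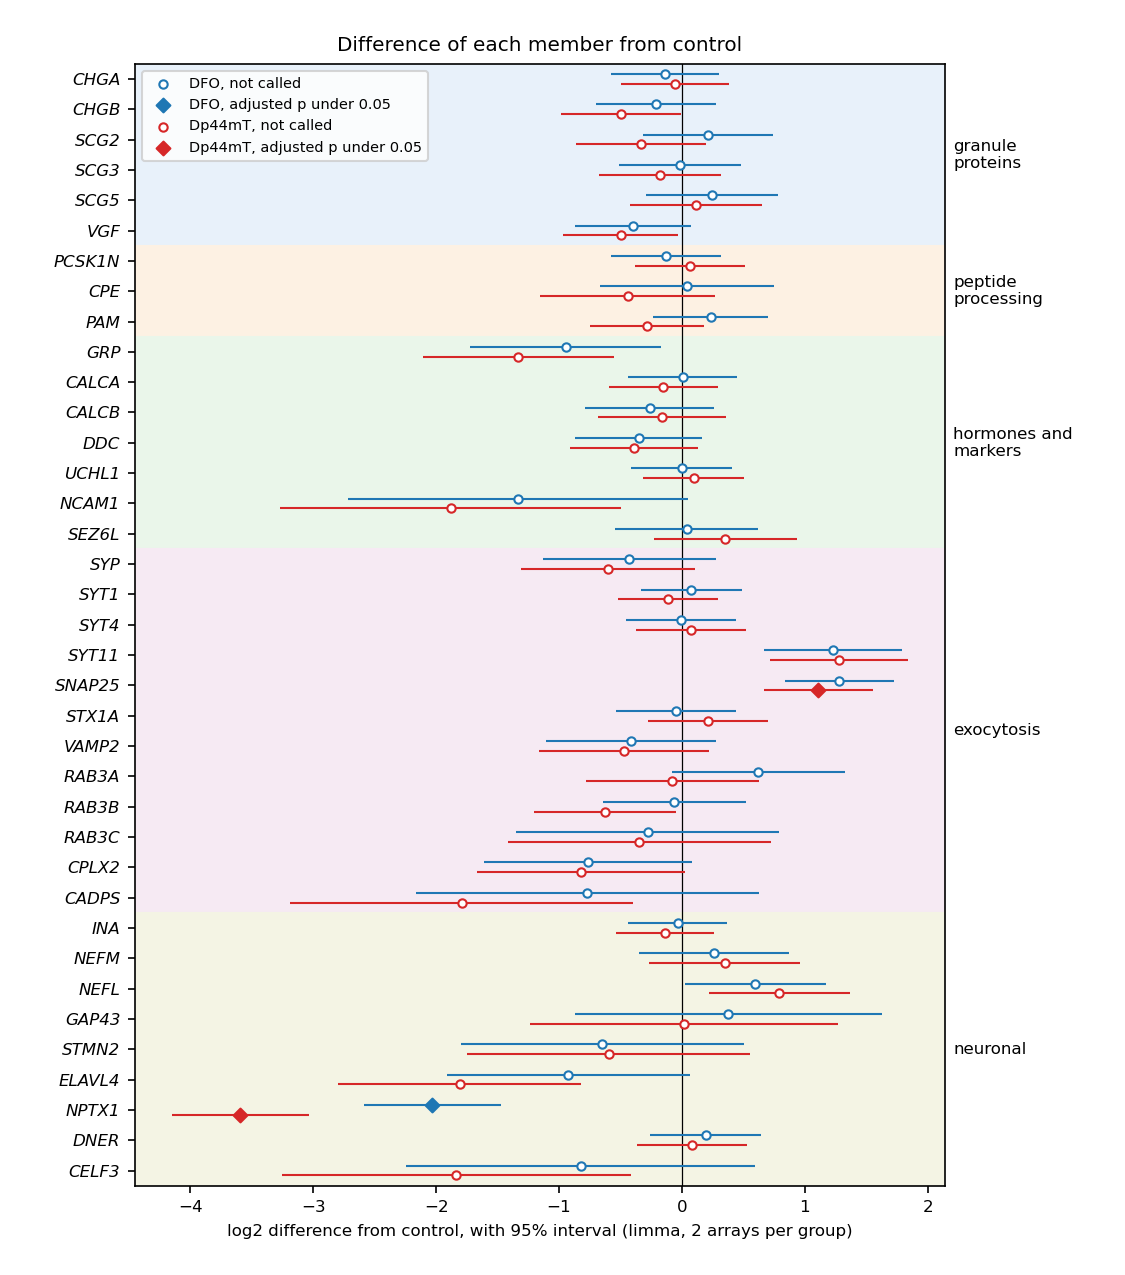
Difference of each tested member from control on the log2 scale (x axis), with the 95% interval from limma, for DFO (blue) and Dp44mT (red); filled diamonds passed an adjusted p of 0.05 and open circles did not. The diamonds are NPTX1 with both chelators and SNAP25 with Dp44mT.

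The exocytosis group held both the members that were higher and some that were lower. SNAP25, which pairs with syntaxin and synaptobrevin to fuse vesicles, read 10.03 and 9.91 in control, 11.31 and 11.19 with DFO, and 11.17 and 10.98 with Dp44mT. All 4 chelator arrays were above both controls. The difference was 1.28 (SE 0.17, limma adjusted p = 0.0514) with DFO and 1.11 (SE 0.17, 95% interval 0.67 to 1.55, adjusted p = 0.0440) with Dp44mT, and it was 1.28 and 1.07 within set 2. The other 2 probe sets pointed the same way, with 1.27 and 1.29 for the second brightest and 2.12 and 1.82 for the dimmest. In the fit over all 54675 probe sets, the dimmest passed with both chelators (limma adjusted p = 0.0378 and 0.0390) and the other 2 with neither. Of the 89 member probe sets it was the only 1 called with DFO, beside 0.320% of all probe sets. With Dp44mT it was 1 of 2 called, beside 1.02%, and the other was that of NPTX1.

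The call of SNAP25 depends on the scaling. The deposited intensities were 1189 and 1356 in control, 3394 and 1621 with DFO, and 2660 and 1098 with Dp44mT, so on that scale the second Dp44mT array lay below both controls. With no scaling between arrays the differences were 0.88 and 0.43, and with the array medians subtracted they were 1.10 and 0.80; none of these passed. The Dp44mT call was also lost when any 1 of the 6 arrays was left out, at 1.00 to 1.20 (limma adjusted p from 0.0656 to 0.398). Pseudocount 1 (limma adjusted p = 0.0567) and no filter on low values (0.0507) lost it as well.

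SYT11, a synaptotagmin that does not bind calcium as the fusion sensors do, read 7.83 and 7.74 in control, 8.78 and 9.24 with DFO, and 8.97 and 9.15 with Dp44mT. Again all 4 chelator arrays lay above control. The differences were 1.23 (SE 0.22, limma adjusted p = 0.102) and 1.28 (SE 0.22, adjusted p = 0.0519), which did not pass. Within set 1 they were 0.96 and 1.14, and within set 2 they were 1.51 and 1.42. All 3 probe sets were higher, by 0.96 to 1.43 with DFO and by 0.88 to 1.28 with Dp44mT. With the mean of a gene's probe sets in place of the brightest, SYT11 passed in both comparisons (adjusted p = 0.0417 and 0.0338), and so did SNAP25 (0.0190 and 0.0185).

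CADPS, a factor that primes dense-core granules for release, read 8.72 and 8.64 in control, 8.31 and 7.51 with DFO, and 7.64 and 6.14 with Dp44mT. All chelator arrays were below control, with the lowest value on the second Dp44mT array. The differences were −0.77 and −1.79 (SE 0.55, limma adjusted p = 0.631 and 0.137). For Dp44mT the difference was −1.08 within set 1 and −2.50 within set 2. The other 5 probe sets were lower with Dp44mT too, by −2.11 to −0.50, and the mean of all 6 by −1.27.

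CPLX2, a complexin that clamps the fusion machinery, read 10.08 and 10.80 in control, 9.38 and 9.98 with DFO, and 9.70 and 9.54 with Dp44mT. The 2 controls differed from each other nearly as much as the groups did, and the differences were −0.76 and −0.82 (SE 0.33). Within set 1 they were −0.70 and −0.38, and within set 2 they were −0.82 and −1.26. The second probe set of CPLX2 differed by −1.15 and −1.19. SYP, synaptophysin of the vesicle membrane, and VAMP2, synaptobrevin, were lower mainly on the second arrays. SYP differed by −0.05 within set 1 and −0.80 within set 2 with DFO, and by −0.22 and −0.98 with Dp44mT. VAMP2 differed by −0.10 and −0.72 with DFO, and by −0.04 and −0.90 with Dp44mT. Neither was called.

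The Rab3 GTPases, which tether vesicles before release, did not share a direction. RAB3A read 7.81 and 8.29 in control, 8.67 and 8.68 with DFO, and 8.25 and 7.69 with Dp44mT, that is above control with DFO (0.62) and overlapping it with Dp44mT (−0.08). RAB3B differed by −0.06 and −0.62, and its other 4 probe sets by −0.03 to 0.28 with DFO and by −0.53 to 0.04 with Dp44mT. RAB3C differed by −0.28 and −0.35 with overlapping groups on its brightest probe set. Its second brightest read 7.06 and 6.75 in control, 6.61 and 5.09 with DFO, and 5.54 and 5.11 with Dp44mT, below control on all 4 chelator arrays by −1.06 and −1.58 (limma adjusted p over all probe sets = 0.621 and 0.198). SYT1, the calcium sensor of fast release, SYT4, a granule synaptotagmin, and STX1A, syntaxin 1A, differed by −0.05 to 0.08 with DFO and by −0.11 to 0.21 with Dp44mT. For SYT1, the 95% interval was −0.33 to 0.49 with DFO and −0.52 to 0.30 with Dp44mT. Over the 12 exocytosis genes, the median was −0.05 for DFO and −0.23 for Dp44mT.

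**Figure D3:**
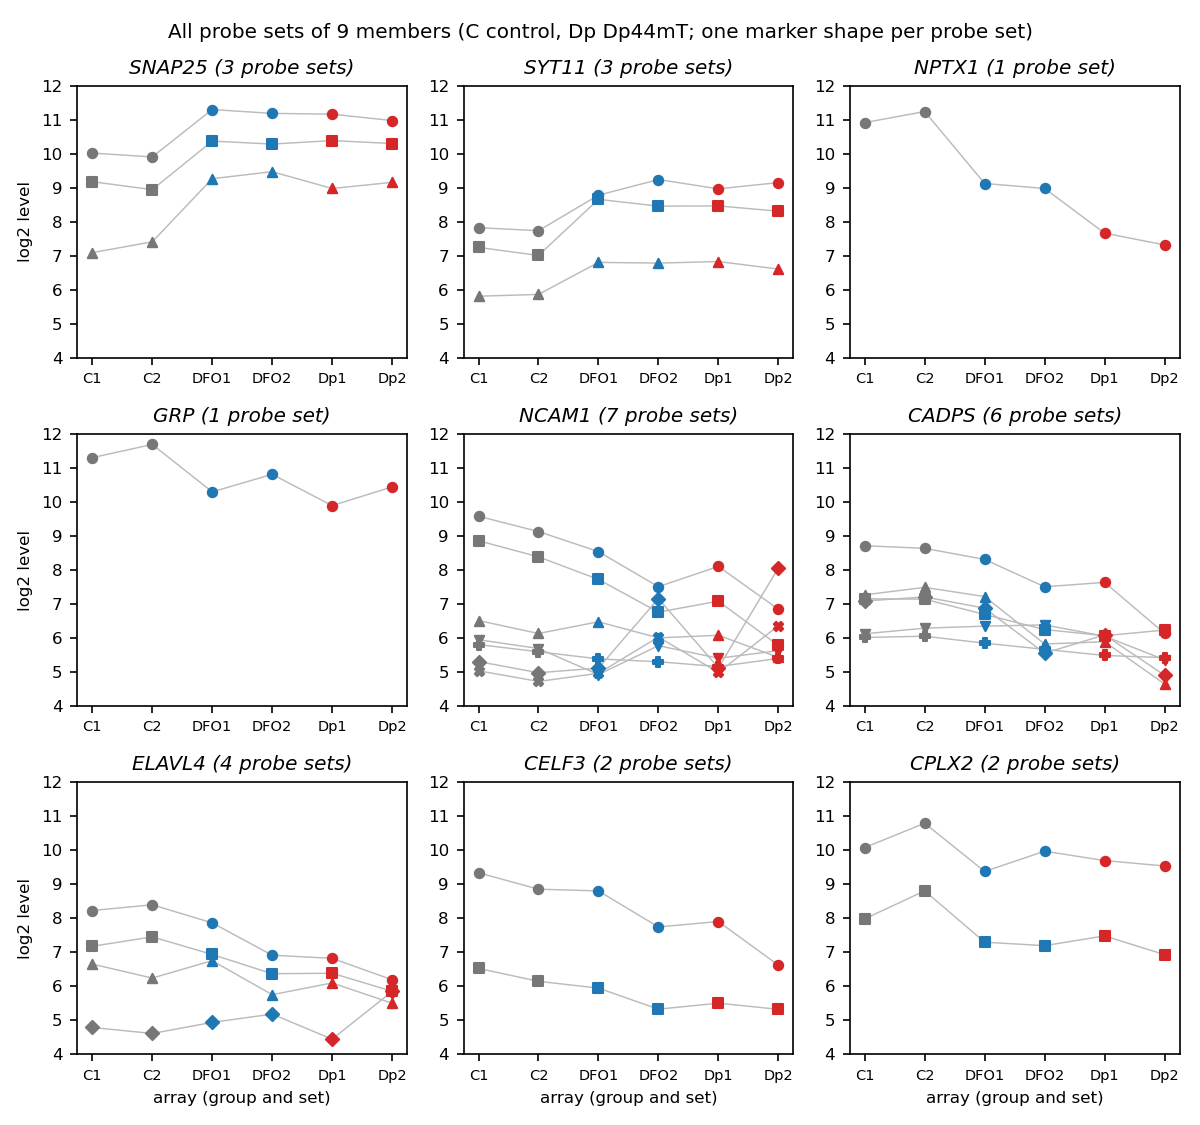
Log2 level (y axis) of every probe set of 9 members on the 6 arrays (x axis: C control, DFO, Dp Dp44mT, with the set number), one marker shape per probe set. The 3 probe sets of SNAP25 and of SYT11 are higher on all chelator arrays, whereas the probe sets of NCAM1 part on the second chelator arrays.

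In the neuronal group, NPTX1, neuronal pentraxin 1, which clusters glutamate receptors at synapses, had the largest difference of all members with both chelators. Its only probe set read 10.92 and 11.25 in control, 9.13 and 8.98 with DFO, and 7.67 and 7.32 with Dp44mT. The 3 groups were fully apart, with Dp44mT the lowest. The deposited intensities were 2186 and 3575, then 749.8 and 358.0, then 202.3 and 88.5. NPTX1 fell by 2.03 with DFO (SE 0.22, 95% interval −2.59 to −1.47, limma adjusted p = 0.0311) and by 3.59 with Dp44mT (SE 0.22, −4.15 to −3.03, adjusted p = 0.00669). Within the sets the differences were −1.79 and −2.27 for DFO, and −3.25 and −3.93 for Dp44mT.

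The Dp44mT call of NPTX1 held without scaling (−4.22, limma adjusted p = 0.00639) and with array medians subtracted (−3.85, adjusted p = 0.00560). The DFO call did not: the differences were −2.39 (adjusted p = 0.257) and −2.17 (adjusted p = 0.0684). It did not hold with the set number as a replicate block either (limma adjusted p = 0.0532), nor in the fit over all probe sets. With pseudocount 1, the other filter settings, the mean of a gene's probe sets, the intensity trend and the crossed block it held. The DFO call was also lost without any 1 of the 6 arrays, at −2.21 to −1.84 (adjusted p from 0.0671 to 0.398). The Dp44mT call was lost without either control or either Dp44mT array, at −3.77 to −3.37 (adjusted p from 0.0588 to 0.175), and held without either DFO array. With 1 control array, or 1 array of the chelator compared, and all arrays of the other groups kept, limma called no gene at all, and between 861 and 2391 genes for DFO and 1745 and 5449 for Dp44mT had an unadjusted p under 0.05.

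ELAVL4, a neuronal RNA-binding protein of the Hu family and an antigen of paraneoplastic disease, read 8.23 and 8.40 in control, 7.86 and 6.91 with DFO, and 6.82 and 6.19 with Dp44mT. All chelator arrays were below control. The differences were −0.92 and −1.81 (SE 0.39, limma adjusted p = 0.407 and 0.0761). Its other 3 probe sets differed by −0.66, −0.19 and 0.36 with DFO and by −1.20, −0.65 and 0.45 with Dp44mT, and the mean of all 4 by −0.36 and −0.80. CELF3, a splicing regulator of neurons, read 9.34 and 8.86, then 8.81 and 7.74, then 7.90 and 6.62, with differences of −0.82 and −1.84 (SE 0.56, adjusted p = 0.613 and 0.136). The second probe set of CELF3 differed by −0.70 and −0.92, and the mean of both by −0.76 and −1.38. In both genes the difference was larger within set 2, at −2.21 for ELAVL4 and −2.24 for CELF3 with Dp44mT, than within set 1, at −1.41 and −1.44. Without the second arrays of both chelators, the Dp44mT difference was −1.59 for ELAVL4 and −1.24 for CELF3. In the same fit it was −1.60 for GRP, −1.30 for NCAM1, −1.10 for CADPS and 1.24 for SYT11. That fit leaves 1 array in each chelator group, which is assumed to vary like the controls.

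The intermediate filament genes did not move together. INA, alpha-internexin, read 10.63 and 10.67 in control, 10.62 and 10.61 with DFO, and 10.53 and 10.51 with Dp44mT, so its differences were −0.03 and −0.13. NEFM, the medium neurofilament chain, differed by 0.26 and 0.35. NEFL, the light chain, read 8.58 and 8.42 in control, 9.35 and 8.85 with DFO, and 9.28 and 9.31 with Dp44mT on its brightest probe set, above control by 0.60 and 0.79 (limma adjusted p = 0.355 and 0.121). Its other 2 probe sets differed by 0.03 and −0.02 with DFO and by −0.19 and −0.29 with Dp44mT, so the higher level rests on 1 of 3 probe sets.

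The remaining neuronal genes were not called. DNER, a Notch ligand of neurons, differed by 0.19 and 0.08. GAP43, the growth-associated protein of axon tips, was dim, between 5.33 and 6.74, with overlapping groups. STMN2, a stathmin that acts on microtubules, was lower mainly on the second arrays, at 5.60 and 5.64 against 6.54 to 6.88 on the other 4. For ELAVL3, which lay below the limit on low values, the 3 probe sets differed by −0.10 to 0.18 with DFO and by −0.17 to 0.41 with Dp44mT in the fit over all probe sets, with none called. The group's median was −0.03 for DFO and −0.13 for Dp44mT.

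Differences within set 2 were often larger than within set 1. Over the 37 members the median was −0.01 within set 1 and −0.14 within set 2 for DFO, and −0.08 and −0.40 for Dp44mT, while over all genes it was −0.10 and −0.05, and 0.02 and −0.07. The second chelator arrays gave the 2 lowest levels of the 6 arrays for 11 members (29.7%), beside 27.3% of all genes tested. They gave the 2 highest levels for 3 members (8.11%), beside 22.3% of all genes, and for 6 of the 11 fibroblast markers.

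**Figure D4:**
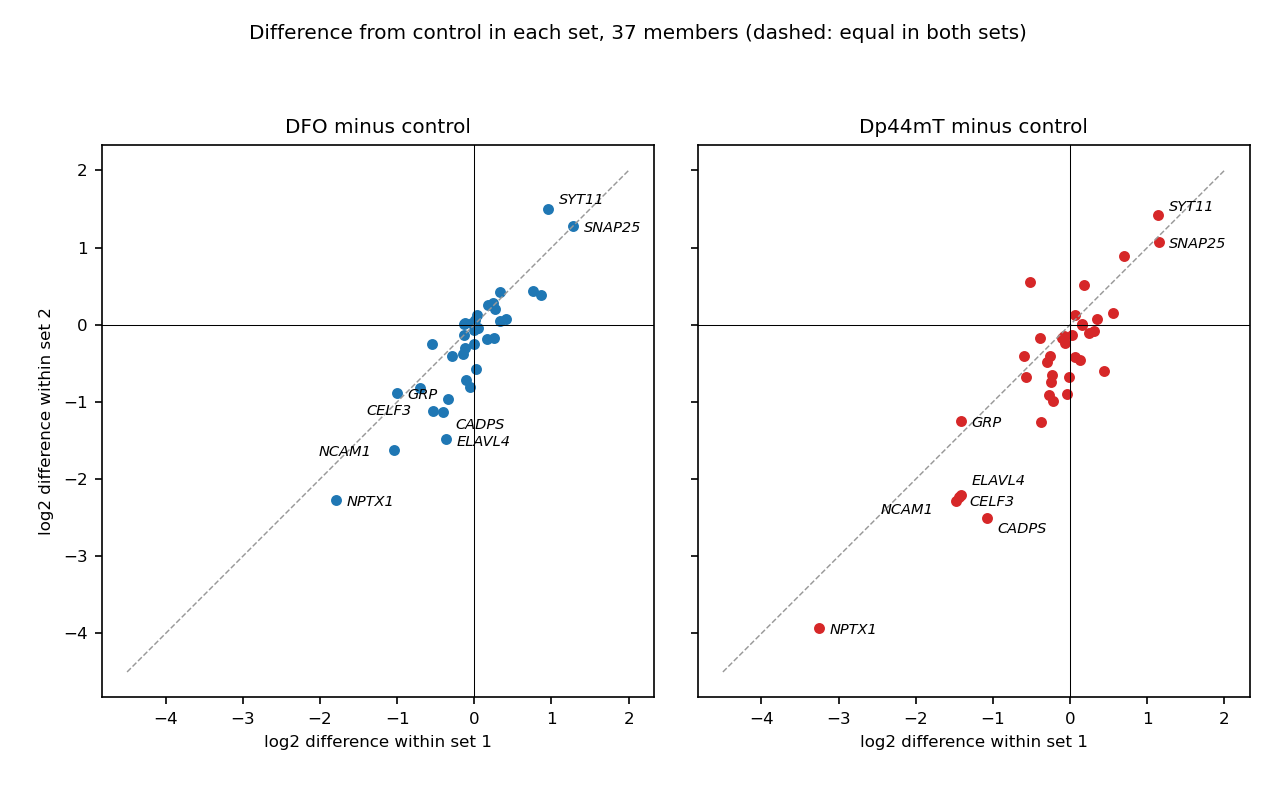
Log2 difference from control within set 1 (x axis) and within set 2 (y axis) for the 37 tested members, DFO on the left and Dp44mT on the right; the dashed line marks equal values. SNAP25 and GRP lie near the line, whereas CADPS, NCAM1, CELF3 and ELAVL4 lie below it.

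The third comparison set Dp44mT directly against DFO, at doses of 25 µM and 250 µM. No member was called, 0 of 37, and limma called 0% of all genes and 0% of all probe sets. At an unadjusted p under 0.05 there were 3 members and 718 genes. The largest difference was that of NPTX1, lower by −1.56 with Dp44mT (SE 0.22, limma adjusted p = 0.922), with both Dp44mT arrays below both DFO arrays. The 95% interval of the difference lay within 2-fold either way for 24 of 37 members, and for 9740 of all 16868 genes tested. For SNAP25 the difference was −0.17 (−0.62 to 0.27), for SYT11 0.05 (−0.51 to 0.61) and for GRP −0.39 (−1.16 to 0.39). Both Dp44mT arrays lay below both DFO arrays for 11 of 37 members and above them for 4. Among all 16868 genes tested they lay below for 2210 and above for 2431. The median was −0.13 over the members and 0.02 over all genes, and the doses differ, so the values stand side by side only.

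The 4 further lists describe the genes around these members. Of 31 other granule and exocytosis genes, 29 were tested and none was called with either chelator. Those with the smallest p with Dp44mT were CPLX1, a complexin of neurons (−0.92, limma adjusted p = 0.0573), CADPS2, the paralog of CADPS (−1.16, adjusted p = 0.0811), SYNGR3, a synaptic vesicle protein (1.15, adjusted p = 0.0932), and SV2A, a vesicle glycoprotein (−1.04, adjusted p = 0.0996). With DFO the same 3 genes CPLX1, SYNGR3 and SV2A differed by −0.64, 1.02 and −0.53, and RAB27B, a GTPase of granule docking, by 1.23. The list's median was −0.03 for DFO and −0.13 for Dp44mT.

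Of 17 other peptide hormone genes, 13 were tested and none was called. The list's median was 0.09 for DFO and 0.10 for Dp44mT, with 9 and 8 of the 13 differences positive. ADCYAP1, which encodes the neuropeptide PACAP, read 8.63 and 8.54 in control, 7.85 and 7.04 with DFO, and 6.84 and 5.79 with Dp44mT. It lay below control on all 4 chelator arrays, by −1.14 and −2.27 (limma adjusted p = 0.368 and 0.0646). CCK, cholecystokinin, differed by 0.90 and 1.25, and the natriuretic peptide gene NPPB by 1.46 with Dp44mT. GAST, gastrin, differed by −0.56 with Dp44mT, NPY, neuropeptide Y, by −0.57 with DFO, and VIP, vasoactive intestinal peptide, by 0.69 with DFO.

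Of 20 other neuronal genes, 17 were tested, and DPYSL3, a protein that acts on growth cone microtubules, rose with DFO. It read 9.10 and 9.28 in control, 10.50 and 10.64 with DFO, and 9.85 and 9.88 with Dp44mT. The 3 groups were apart, and the differences were 1.38 with DFO (limma adjusted p = 0.0411) and 0.67 with Dp44mT (adjusted p = 0.0998). The DFO call of DPYSL3 was lost without scaling (0.98, adjusted p = 0.925), with medians subtracted (1.21, adjusted p = 0.318) and without any 1 of the 6 arrays (1.30 to 1.45). Pseudocount 1, the mean of its probe sets and the set number as a block lost it too (limma adjusted p = 0.0558, 0.0585 and 0.0538). The Dp44mT difference of DPYSL3 was −0.04 without scaling. None was called with Dp44mT, where CELF4, a splicing regulator like CELF3, differed by −1.19, the microtubule protein MAP1B by 0.78 and the neuronal membrane protein NNAT by 0.73. The list's median was 0.18 for DFO and 0.14 for Dp44mT, with 13 and 12 of the 17 differences positive.

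The last list holds neuroendocrine transcription factors and REST, and 9 of its 11 genes were tested. With DFO 1 of the 9 was called, and with Dp44mT 2, beside 1.10% and 3.37% of all genes tested. The difference was positive for 3 and 4 of the 9, up to 0.92 and 1.45. The list's median was −0.15 for DFO and −0.13 for Dp44mT. INSM1, a zinc finger factor of neuroendocrine cells, fell with both chelators. It read 12.17 and 12.68 in control, 10.30 and 10.15 with DFO, and 9.30 and 8.82 with Dp44mT, with differences of −2.21 and −3.37 (limma adjusted p = 0.0400 and 0.0119). Without scaling the differences of INSM1 were −2.35 and −3.83, and the DFO one did not pass (adjusted p = 0.334). Nor did it pass with medians subtracted (limma adjusted p = 0.0905) or with pseudocount 1 (0.0528). The mean of its probe sets (0.0545) and the set number as a block (0.0713) lost the DFO call too. The DFO call was lost without any 1 of the 6 arrays (−2.47 to −1.99), and the Dp44mT call without a control or Dp44mT array (−3.64 to −3.08). SOX2, a factor of progenitor cells, fell with Dp44mT by 1.72 (adjusted p = 0.0173) and differed by −0.42 with DFO. The Dp44mT call of SOX2 was lost without scaling (−2.44, adjusted p = 0.0687), with the mean of its probe sets (−0.56, adjusted p = 0.202) and without a control or Dp44mT array (−1.79 to −1.66). REST, the repressor of neuronal genes, differed by −0.04 and 0.39 and was not called.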

How the data were processed

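The authors deposited 1 linear intensity per probe set and array. The submitters' processing notes name Affymetrix Expression Console 1.1, and the summarization and normalization are not given in the sources used here. From these, log2(intensity + 16) was computed for 54675 probe sets. Because the array medians differed, limma 3.58.1 (R 4.3.3) was used to quantile normalize the 6 arrays. Genes were named with the platform annotation. Only the 41097 probe sets with 1 symbol were used; 1801 carry several symbols and 11777 none. Each gene was represented by its brightest probe set on average, and genes under the 25th percentile of all probe sets (5.55) were left out. The 3 groups were fitted in 1 limma model, two-sided, with 3 residual and 2.22 prior degrees of freedom. Exact permutation of 2 against 2 arrays has 0.333 as its smallest two-sided p, so it was left out.

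All members are named. Of each other list and for each comparison, up to 4 genes are named, those past the threshold by size or else those with the smallest p. REST, EPCAM and KRT18 are named in addition, outside this rule. The members and lists were chosen with earlier results of these data known. The fit was tested on simulated data with independent noise on each array. Deviations of the real same-numbered DFO and Dp44mT arrays correlated at 0.84, a structure that the simulation did not hold. The number of arrays limits the precision. Alternatives covered the scaling, the pseudocount, the filter, the choice of probe set, the variance trend, the set number as a replicate block and leaving out arrays.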

Additional observations from a re-analysis of the deposited data

Results flagged for a closer look

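For PAM and SYT1 both DFO arrays lay above and both Dp44mT arrays below the 2 controls on the brightest probe set. PAM was lower with Dp44mT than with DFO by −0.52, and SYT1 by −0.19. In the direct comparison neither passed (limma adjusted p = 0.922 for both). The second probe set of SYT1 differed by −0.20 with DFO. For PAM, the second brightest probe set overlapped control with DFO (0.17) and the dimmest overlapped it with Dp44mT (−0.12). With no scaling between arrays the DFO difference was −0.18 for PAM and −0.33 for SYT1, and with array medians subtracted it was 0.05 and −0.11.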

How the results depend on the processing

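Of 1178 member differences from control recomputed under the alternatives, 985 counted as the same and 145 moved by more than the spread between replicates. A further 24 lost their call, 24 gained one and none of the called values reversed. A difference called in both fits counted as the same by its sign alone. The spread was checked only for differences called in neither fit. With no scaling between arrays 0 members were called for DFO and 1 for Dp44mT, and 0 member probe sets for either. With array medians subtracted the counts were 0 and 1 members, and 0 and 1 probe sets. Pseudocount 1 gave 0 member probe sets for DFO and 1 member and 1 probe set for Dp44mT, and no filter on low values gave 1 member for Dp44mT. A filter at the 50th percentile gave 2 members for DFO, beside 223 higher and 33 lower of 13124 genes. The mean of a gene's probe sets gave 3 members for DFO, beside 152 higher and 17 lower of 16178 genes. An intensity trend in limma gave 2 members and 4 probe sets for DFO, and 4 and 4 for Dp44mT. Of all 16868 genes, the fit with the trend called 330 higher and 70 lower for DFO, and 580 and 684 for Dp44mT. Over all genes, 18 higher and 8 lower passed for DFO without scaling, and 85 and 13 with medians subtracted. For Dp44mT they were 25 and 41, and 117 and 186. The median over the members was −0.45 for DFO, −0.88 for Dp44mT and −0.45 for Dp44mT against DFO without scaling (all genes −0.32, −0.50 and −0.24), and −0.22, −0.51 and −0.31 with medians subtracted.

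With the set number as a replicate block, 0 members were called for DFO, and 6 members and 4 probe sets for Dp44mT. Of all 16868 genes, that block called 151 higher and 18 lower for DFO, and 389 and 520 for Dp44mT. The labels do not say that a number marks a shared culture, and deviations of same-numbered arrays correlated at −0.25 for control and DFO, −0.35 for control and Dp44mT, and 0.84 for DFO and Dp44mT. A block with the control numbers crossed, chosen after seeing the data, gave 3 members and 2 probe sets for DFO, and 8 and 14 for Dp44mT. Of all 16868 genes, the crossed block called 398 higher and 113 lower for DFO, and 1196 and 1562 for Dp44mT. Leaving out 1 array at a time gave 0 members and 0 probe sets for DFO, and 0 to 1 of each for Dp44mT. The fit without the second arrays of both chelators leaves 1 array in each chelator group, so its counts are not given. The cause of these shifts was not tested.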
